A study of Mus musculus with 4 samples.

Results

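The 10 genes Hand2, Nr2f2, Cebpb, Prl8a2, Prlr, Fst, Htra3, Alpl, Gatm and Cryab are regulators and products of the decidual stroma. They were taken by symbol from a list of decidual stromal genes and are 10 of the 55421 genes counted in each library. The levels come from uteri of pregnant mice at E18.5, with RNA taken from a small amount of the frozen tissue and sequenced as poly(A) RNA with 1 library per mouse. WT mice were C57BL/6J (n = 2) and Qa-2- mice were B6.Cg-H2b3/FlaCmwJ, also called B6.K1 (n = 2). Qa-2- mice lack the H2-Q genes that encode Qa-2, a class Ib molecule of the H2 complex. Both groups were mated within their own strain, so the fetuses of Qa-2- mothers also lacked Qa-2. The Qa-2- strain is an H2 congenic strain that arose by breeding and was bought from another breeder than the WT mice, so the lack of Qa-2, other differences of the strain and the source of the mice cannot be told apart. The labels give no treatment.

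Decidual stroma arises after implantation, when progesterone makes the fibroblasts of the endometrium divide and become large secretory cells. Hand2, Nr2f2 and Cebpb are transcription factors of this change, and the cells it gives secrete prolactin-related hormones, protease regulators and binding proteins of the TGF-beta family. Late in pregnancy the mouse decidua has become thin, and most of the uterine wall is smooth muscle. In such bulk tissue, fewer cells of a type and less RNA per cell cannot be told apart.

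The libraries held 33286390 to 41041299 assigned read pairs, and 14492 genes passed a filter of 1 count per 1000000 (CPM) of the library total in at least 2 libraries. As a check of the labels, H2-Q6 and H2-Q7 had 1192 to 6318 counts in the WT libraries and 2 to 4 in the Qa-2- libraries. No gene of the 14492 passed an adjusted p of 0.05 (0%; quasi-likelihood test of edgeR, p adjusted by Benjamini-Hochberg). Without adjustment, p was under 0.05 for 8.09% of all genes with the higher level in WT and for 7.09% with the higher level in Qa-2-. Both WT libraries lay above both Qa-2- libraries in 25.4% of genes, and both Qa-2- libraries lay above both WT libraries in 24.5%. Smooth muscle markers were abundant in all libraries, with a summed level of 12839 to 45010 CPM, and uterine epithelium markers summed to 2543 to 9048 CPM. The 15 trophoblast markers summed to 15.6 to 78.7 CPM, of which Peg10 alone was at 15.2 to 74.0 CPM. Prl3d1, Prl5a1, Ctsq and Gcm1 were at 0 counts in every library. Others were counted in some libraries only. Psg21 had 308 counts in WT replicate 2 and 0 elsewhere. Tpbpa had 4 and 271 counts in WT replicates 1 and 2, and 115 and 5 in Qa-2- replicates 1 and 2. An exact permutation test of 2 against 2 libraries cannot give a two-sided p below 0.33, so single-gene tests rest on the model across all genes.

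Positions are those of the gene models in the files (GRCm38), and none of the 10 genes lies on chromosome 17, which carries the H2 complex. All 10 genes passed the filter and reached at least 1 CPM in every library. Hand2, Fst and Htra3 had both WT libraries above both Qa-2- libraries, by 1.55-fold, 2.02-fold and 2.48-fold in the mean CPM. These 3 of 10 members stand beside 25.4% of all genes with the same separation, so their number was near the background. WT replicate 2 alone was above both Qa-2- libraries for 4 of the 10 members and for 40.1% of all genes. Hand2, Fst and Htra3 were also the 3 members with an unadjusted p under 0.05 (8.09% of all genes in that direction). Prl8a2 and Gatm spanned the widest ranges, and their highest level was in WT replicate 1 alone. The groups overlapped for the other 5 members, Nr2f2, Cebpb, Prlr, Alpl and Cryab. No member passed the adjusted test, in which their adjusted p ran from 0.265 to 0.977. The fitted log2 fold change (WT over Qa-2-) was above 0 for 10 of 10 members, with a median of 0.54 beside 0.012 over all genes tested. In a fit without WT replicate 1 that median was 0.23, and the values of Prl8a2, Gatm and Prlr were below 0.

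**Figure D1:**
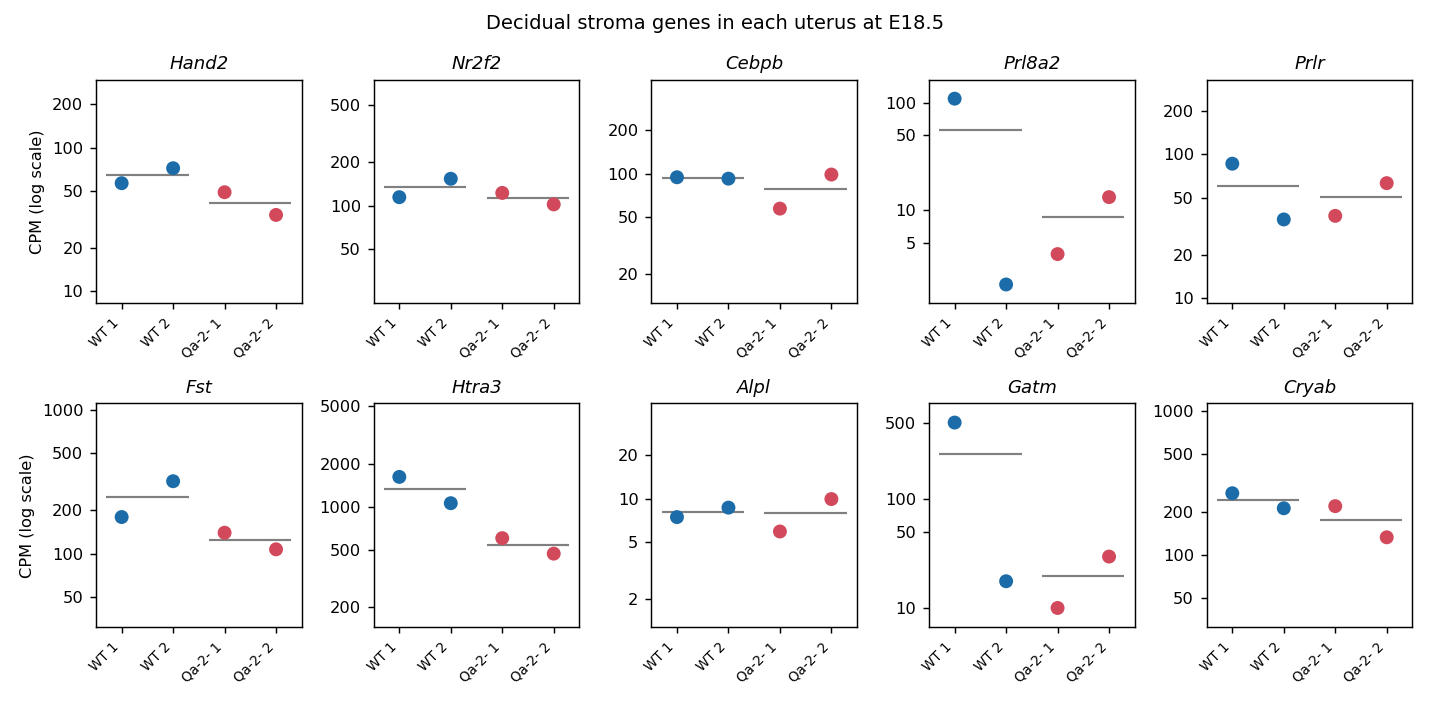
Level of each of the 10 decidual stroma genes in the 4 uteri. Each point is 1 library in CPM on a log axis, blue for WT and red for Qa-2-, and grey lines are group means. Hand2, Fst and Htra3 lie higher in both WT libraries, whereas Prl8a2 and Gatm stand far above the other libraries in WT replicate 1 alone.

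Compared per length of the gene model, Htra3 had the highest mean level, with WT at 301.7 and Qa-2- at 121.6 CPM per kilobase. Cryab was next with WT at 161.8 and Qa-2- at 118.4 CPM per kilobase. These neighbours were not separate in Qa-2-, since Cryab was above Htra3 in Qa-2- replicate 1 (147.4 and 136.6 CPM per kilobase) and below it in Qa-2- replicate 2 (89.5 and 106.6). Gatm, Cebpb, Prl8a2 and Fst had WT means of 86.9, 62.1, 59.3 and 54.3 CPM per kilobase, and the libraries of each overlapped with those of the next. Hand2 (27.3) and Nr2f2 (15.5) followed and did not overlap each other in WT. The places of Gatm and Prl8a2 rest on WT replicate 1, since Gatm was at 3.304 to 9.82 CPM per kilobase and Prl8a2 at 2.17 to 14.1 in the other 3 libraries. In Qa-2- the means of Prl8a2 (9.15) and Gatm (6.56) were below those of Hand2 (17.6) and Nr2f2 (13.0). Prlr (3.95) and Alpl (1.998) had the lowest WT means per kilobase.

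Among the transcription factors, Hand2 showed the clearest separation of the groups. Hand2 (ENSMUSG00000038193, chr8:57320983-57324633, plus strand) is a basic helix-loop-helix factor that progesterone induces in the stroma, where it represses growth factor signals to the epithelium. It had 2266 and 2707 counts in the WT libraries and 1734 and 1188 in the Qa-2- libraries, or 56.5 and 71.8 CPM against 48.9 and 34.0 CPM. Both WT libraries were thus above both Qa-2- libraries, with the smallest gap between WT replicate 1 and Qa-2- replicate 1. The mean was 64.1 ± 10.8 CPM for WT and 41.4 ± 10.5 CPM for Qa-2- (SD, n = 2 each), a log2 fold change of 0.63 (SE 0.24). The unadjusted p was 0.0448 and the adjusted p was 0.319 in edgeR's quasi-likelihood test. Leaving out 1 library at a time gave log2 fold changes of 0.39, without Qa-2- replicate 2, to 0.91, without Qa-2- replicate 1. Hand2os1, on the opposite strand, had 379 to 757 counts and its own order of libraries, lowest in WT replicate 1. The counting used strand, which keeps the pair apart.

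Nr2f2 (ENSMUSG00000030551, chr7:70351944-70366735, minus strand) encodes COUP-TFII, a nuclear receptor of the stroma downstream of Indian hedgehog. It had 114.3 and 153.6 CPM in the WT libraries and 122.4 and 101.9 CPM in the Qa-2- libraries. The groups overlapped, since Qa-2- replicate 1 lay between the WT libraries. The log2 fold change was 0.26 (SE 0.22, adjusted p = 0.605 in edgeR's quasi-likelihood test), and it was 0.026 without WT replicate 2. Cebpb (ENSMUSG00000056501, chr2:167688915-167690418, plus strand) encodes C/EBP-beta, a leucine zipper factor that stromal cells need to decidualize. Its levels were 94.4 and 92.3 CPM for WT against 57.1 and 98.6 CPM for Qa-2-. The WT libraries were nearly equal and lay between the Qa-2- libraries, so the wider spread of Cebpb was within Qa-2- (1.73-fold). Its log2 fold change of 0.26 (SE 0.28, adjusted p = 0.684) became -0.083 without Qa-2- replicate 1 and 0.70 without Qa-2- replicate 2.

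The hormone Prl8a2 had the widest range of the 10 genes. Prl8a2, decidual prolactin-related protein (ENSMUSG00000018259, chr13:27345673-27354216, plus strand), is a hormone of the prolactin family that in mice is made by decidual cells. It had 4387 and 77 counts in the WT libraries and 139 and 464 in the Qa-2- libraries, or 109.3 and 2.04 CPM against 3.92 and 13.3 CPM. WT replicate 1 was the highest library and WT replicate 2 the lowest, with both Qa-2- libraries between them. The WT libraries thus differed 53.5-fold, while genes of similar level differed 1.16-fold in the median. Among all genes, 0.462% were at least 5-fold higher in WT replicate 1 than in WT replicate 2, and of the 10 members these were Prl8a2 and Gatm. The fitted log2 fold change of Prl8a2 was 2.696 with an SE of 1.64 (adjusted p = 0.473 in edgeR's quasi-likelihood test). Without WT replicate 1 it was -2.10 (unadjusted p = 0.0352, adjusted p = 0.275), so that this 1 library set the direction.

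The other genes of the prolactin family had few counts beside the 4387 of Prl8a2 in WT replicate 1. Prolactin itself (Prl) was not looked up. The gene models held 24 of the others, 6 with 0 counts in all libraries. The highest single value was 699 counts of Prl6a1 in Qa-2- replicate 2. Their summed counts were 265 and 812 for WT replicates 1 and 2, and 417 and 716 for Qa-2- replicates 1 and 2. Prl8a2 was below these sums in WT replicate 2 (77 counts) and in Qa-2- replicates 1 and 2 (139 and 464). Much of this was Prl6a1, with 233 and 125 counts in WT and 191 and 699 in Qa-2-. The other 23 genes summed to 32 and 687 counts in WT and to 226 and 17 in Qa-2-. WT replicate 1, with the most Prl8a2, was thus the highest library neither for Prl6a1 nor for the rest, many of which are trophoblast hormones. Read pairs that matched several of these similar genes were not counted, so the levels of single family members are less certain than those of other genes.

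Prlr (ENSMUSG00000005268, chr15:10177238-10349180, plus strand) encodes the prolactin receptor, through which hormones of this family can act by the kinase Jak2 and the factors Stat5a and Stat5b. It had 85.95 and 35.2 CPM in the WT libraries and 37.3 and 62.9 CPM in the Qa-2- libraries. Its order of libraries was the same as that of Prl8a2 over a much smaller range, with WT replicate 1 highest and WT replicate 2 lowest. The log2 fold change was 0.27 (SE 0.48, adjusted p = 0.814), with -0.54 without WT replicate 1 and -0.060 without Qa-2- replicate 1. Of the 7 genes downstream of the receptor, 7 had a log2 fold change below 0, with a median of -0.64. Stat5a (-1.14) and Stat5b (-0.39) had an unadjusted p under 0.05, and neither passed the adjusted test. Stat5a was at 22.1 and 21.2 CPM in WT, against 37.1 and 58.7 CPM in Qa-2-, so the groups did not overlap, in the direction opposite to the fitted value of Prlr. Jak2 was at 211.9 and 123.1 CPM in WT, against 255.0 and 327.1 CPM in Qa-2-, also with no overlap.

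Fst (ENSMUSG00000021765, chr13:114452290-114458951, minus strand) encodes follistatin, a secreted protein that binds and blocks activins. It had 7208 and 12024 counts in the WT libraries and 4958 and 3745 in the Qa-2- libraries, or 179.6 and 318.8 CPM against 139.7 and 107.1 CPM. Both WT libraries were above both Qa-2- libraries, with the highest level in WT replicate 2. The means were 249.2 ± 98.5 CPM and 123.4 ± 23.1 CPM (SD, n = 2 each). The log2 fold change was 1.01 (SE 0.33, unadjusted p = 0.0271, adjusted p = 0.294 in edgeR's quasi-likelihood test), and it was 0.54 without WT replicate 2. Inhba, the activin A subunit that follistatin binds, was at 23.4 and 30.2 CPM in WT, against 10.5 and 4.92 CPM in Qa-2-. Its order of libraries was that of Fst, with a log2 fold change of 1.80 (adjusted p = 0.246). Of the 8 activins, their receptors and relatives of follistatin, Inhba alone was higher in WT at an unadjusted p under 0.05, and the receptor Acvr1b alone was higher in Qa-2- (-1.20). The activin subunit Inhbb, more abundant than Inhba, was at 288.3 and 712.4 CPM in WT, against 259.0 and 276.5 CPM in Qa-2-. Both WT libraries were above both Qa-2- libraries for 2 of the 8, Inhba and Inhbb (25.4% of all genes). The reverse held for 3 (24.5%). The median log2 fold change of these 8 genes was 0.14.

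Htra3 had the highest level and the smallest adjusted p of the 10 genes. The gene (ENSMUSG00000029096, chr5:35652023-35679782, minus strand) encodes a secreted serine protease that is abundant in decidua and can inhibit TGF-beta family signals. The WT libraries had 64918 and 40030 counts and the Qa-2- libraries 21527 and 16548, or 1617 and 1061 CPM against 606.5 and 473.0 CPM. Both WT libraries were above both Qa-2- libraries, with the WT libraries 1.52-fold and the Qa-2- libraries 1.28-fold apart. The means were 1339 ± 393.1 CPM for WT and 539.8 ± 94.3 CPM for Qa-2- (SD, n = 2 each). The log2 fold change was 1.31 (SE 0.34, unadjusted p = 0.0108, adjusted p = 0.265 in edgeR's quasi-likelihood test). It stayed between 0.95, without WT replicate 1, and 1.58, without WT replicate 2. Htra3 was the only member that DESeq2's Wald test called, with an adjusted p of 0.00178. In that test 700 genes were called in all, so the call rests on the tool.

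**Figure D2:**
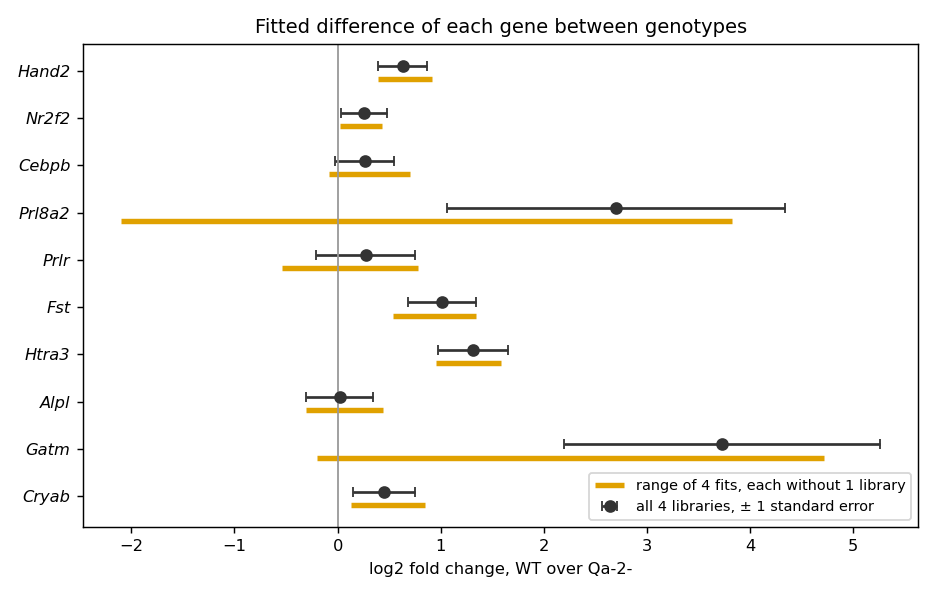
Log2 fold change, as WT over Qa-2-, for each of the 10 genes. Black points are the fit of all 4 libraries with 1 standard error to each side, and orange lines span the values when each library was left out in turn. The orange lines of Hand2, Fst, Htra3, Nr2f2 and Cryab stay above 0, and those of Prl8a2, Gatm, Prlr, Cebpb and Alpl reach below it.

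Promoter sequence was matched for 7 of the 10 genes in RefSeq (GRCm38.p6), and Prl8a2, Cryab and Fst had no match. The 250 bases before the start are shown for Hand2 and Htra3, which separated the groups, and for Gatm, with the widest range of the 7. They are written on the strand of the gene. Capitals mark a CATCTG E-box, a word bound by Hand factors, on either strand in Hand2 and Htra3, and an AGGTCA nuclear receptor half-site on the opposite strand in Gatm.
Hand2, chr8:57320733-57320982, plus strand: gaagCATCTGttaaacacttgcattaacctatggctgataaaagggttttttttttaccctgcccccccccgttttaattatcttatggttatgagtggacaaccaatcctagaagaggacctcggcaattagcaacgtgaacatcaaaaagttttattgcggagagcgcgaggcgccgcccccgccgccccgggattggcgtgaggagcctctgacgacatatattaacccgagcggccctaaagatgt
Htra3, chr5:35679781-35680030, minus strand: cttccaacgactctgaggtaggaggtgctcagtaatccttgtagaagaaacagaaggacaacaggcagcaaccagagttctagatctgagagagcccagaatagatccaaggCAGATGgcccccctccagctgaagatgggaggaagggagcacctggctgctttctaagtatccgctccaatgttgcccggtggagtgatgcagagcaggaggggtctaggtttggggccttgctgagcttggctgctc
Gatm, chr2:122611278-122611527, minus strand: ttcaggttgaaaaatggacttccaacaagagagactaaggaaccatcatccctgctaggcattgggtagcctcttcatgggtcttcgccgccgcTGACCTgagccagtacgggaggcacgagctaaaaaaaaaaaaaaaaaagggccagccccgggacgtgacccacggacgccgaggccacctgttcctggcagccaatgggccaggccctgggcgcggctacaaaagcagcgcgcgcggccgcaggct
Counted from the RefSeq start, the E-box began 246 bases before it in Hand2 and 138 bases before it in Htra3, and the half-site 156 bases before it in Gatm. For Htra3 and Gatm that start lies inside the gene model whose position is given, so the last bases shown overlap the model. On both strands, 14.4% of 32851 promoters of this length held CATCTG and 14.0% held AGGTCA, so such matches are common and are given as a description. None of these 3 sequences held the C/EBP core TTGCNNAA (9.56% of all promoters), the half-site TGTTCT of the progesterone receptor (16.1%) or the TATA box TATAAA (12.4%).

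Of the enzymes, Alpl and Gatm lay at opposite ends of the range of differences. Alpl (ENSMUSG00000028766, chr4:137741733-137796384, minus strand) is the tissue-nonspecific alkaline phosphatase, an old histochemical mark of decidual cells. It had the lowest level per length, with 299 and 327 counts in the WT libraries and 210 and 348 in the Qa-2- libraries, or 7.45 and 8.67 CPM against 5.92 and 9.95 CPM. The Qa-2- libraries lay on either side of the WT libraries. Its log2 fold change of 0.023 (SE 0.32, adjusted p = 0.977) had no stable sign, and it was -0.079 with library totals alone as the scale and -0.31 without Qa-2- replicate 1.

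Gatm (ENSMUSG00000027199, chr2:122594467-122611303, minus strand) encodes the mitochondrial enzyme of the first step of creatine synthesis. It had 20237 and 659 counts in the WT libraries and 352 and 1031 in the Qa-2- libraries, or 504.2 and 17.5 CPM against 9.92 and 29.5 CPM. WT replicate 1 was far above the other 3 libraries, and WT replicate 2 lay between the Qa-2- libraries. The WT libraries differed 28.9-fold and the Qa-2- libraries 2.97-fold. The fitted log2 fold change of 3.73 had an SE of 1.54 (unadjusted p = 0.0580, adjusted p = 0.343 in edgeR's quasi-likelihood test), and it was -0.20 without WT replicate 1. Gamt, the enzyme of the second step, was at 4.43 to 6.23 CPM with overlap of the groups and did not share the high level of WT replicate 1. Of the other 6 genes of creatine handling, 5 passed the filter and had a median log2 fold change of -0.00058. Among them the creatine transporter Slc6a8 (0.81) was higher in WT and the mitochondrial creatine kinase Ckmt1 (-1.39) higher in Qa-2- at an unadjusted p under 0.05.

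Cryab (ENSMUSG00000032060, chr9:50751325-50756636, plus strand), the small heat shock protein alpha B-crystallin, is made both by decidual cells and by muscle. It had 268.0 and 210.6 CPM in the WT libraries and 218.0 and 132.3 CPM in the Qa-2- libraries. Qa-2- replicate 1 lay between the WT libraries, so the groups overlapped. The log2 fold change was 0.45 (SE 0.30, adjusted p = 0.510 in edgeR's quasi-likelihood test), and it ran from 0.13, without Qa-2- replicate 2, to 0.85, without Qa-2- replicate 1.

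The high level of Prl8a2 and Gatm in WT replicate 1 was shared by Cyp11a1, the 1 gene of the 18 other decidual products that was also at least 5-fold higher there than in WT replicate 2, and by some genes of uterine NK cells. Likeness was measured over the 4 libraries as the root mean square difference of centred log2 CPM from Prl8a2 among 14491 genes. Nearest were the prostaglandin D synthase Ptgds (0.46), granzyme B, Gzmb (0.67), and the lipopolysaccharide binding protein Lbp (0.73). Prf1, Gatm and Cyp11a1 ranked 4, 5 and 6. Cyp11a1, the enzyme that starts steroid synthesis from cholesterol, was at 179.8 and 2.07 CPM in WT, against 8.001 and 6.63 CPM in Qa-2-. Tdo2, a tryptophan-degrading enzyme of the decidua, was at 23.5 and 6.23 CPM in WT, against 7.75 and 5.43 CPM in Qa-2-. Both were highest in WT replicate 1, but Tdo2 ranked only 93 in likeness to Prl8a2 (1.56). Perforin, Prf1, was at 78.2 CPM in WT replicate 1 and at 1.32 to 4.55 CPM in the others, and granzyme C, Gzmc, was at 149.5 CPM against 1.01 to 4.83 CPM. The 7 uterine NK cell genes summed to 257.7 CPM in WT replicate 1 and to 6.03 to 18.8 CPM in the other libraries, although 3 of the 7 were not highest there. These were granzyme A, Gzma, at 0.972 and 1.06 CPM in WT against 0.338 and 1.60 CPM in Qa-2-, and the receptors Ncr1 and Klrb1c, both below the filter. The part of these cells in the levels of Prl8a2 and Gatm was not tested.

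**Figure D3:**
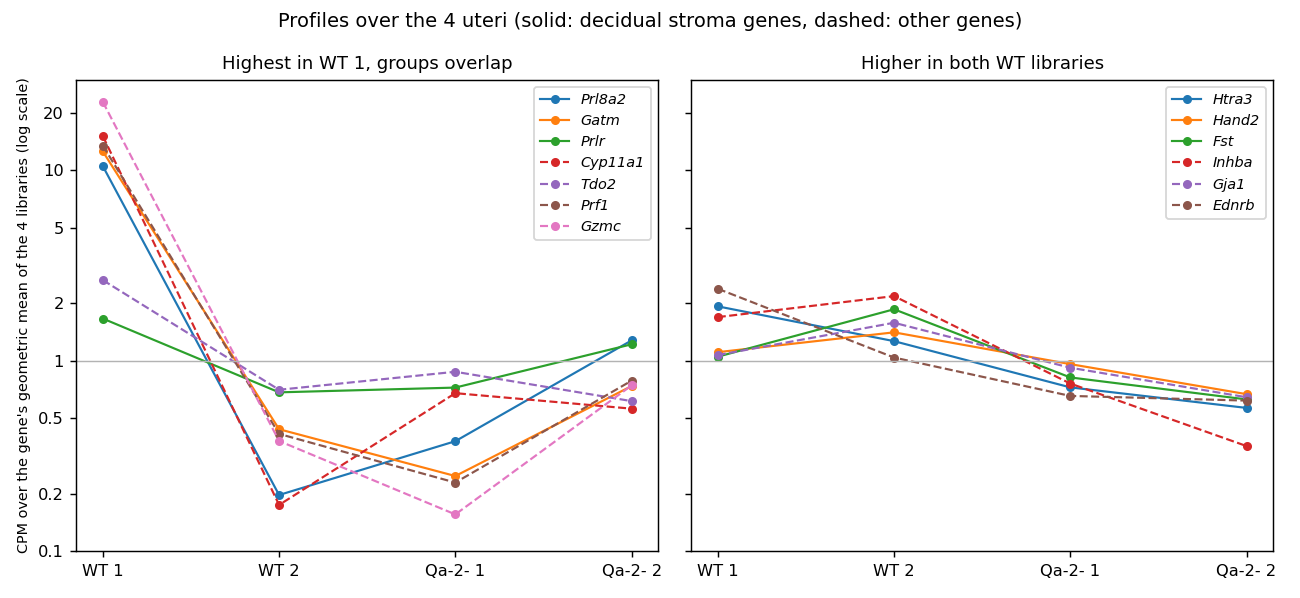
Level in each of the 4 libraries divided by the geometric mean of the gene over the libraries, on a log axis. Solid lines are decidual stroma genes and dashed lines other genes. In the left panel Prl8a2, Gatm, Cyp11a1, Prf1 and Gzmc reach over 10 times their mean in WT replicate 1, and in the right panel Htra3, Hand2 and Fst lie higher in both WT libraries with Inhba, Gja1 and Ednrb.

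Hand2 and Fst shared their order of libraries with markers of another cell type. This order, from WT replicate 2 over WT replicate 1 and Qa-2- replicate 1 down to Qa-2- replicate 2, was that of the summed smooth muscle markers, at 45010, 27032, 23954 and 12839 CPM. Of the 8 smooth muscle genes, 6 did not overlap between the groups and were higher in WT (25.4% of all genes). An unadjusted p under 0.05 was reached by 0 of them. Their median log2 fold change was 0.99. Htra3, with its highest level in WT replicate 1, had another order, which was that of the summed endothelial markers (1397, 1112, 557.0 and 465.6 CPM), and singly of Cdh5, Prox1 and Lyve1 among these 7 genes. All 7 endothelial genes had an unadjusted p under 0.05 with the higher level in WT (8.09% of all genes), and their median was 1.06. The mesothelial genes Upk3b (3.42), Msln (1.15) and Lrrn4 (4.15) also had the order of libraries of Htra3, while Wt1 (0.18), the other mesothelial gene, overlapped. The 12 epithelial genes all had a log2 fold change below 0 (median -0.79). Of 8 general markers of uterine stroma, 4 were higher in both WT libraries (25.4% of all genes). These were Dcn, Lum and Thy1 in the order of libraries of Htra3 and Vim in that of Hand2 and Fst. Their log2 fold changes were 0.98, 1.15, 1.13 and 0.63. Pdgfra (-0.59) was higher in both Qa-2- libraries, and the groups overlapped for the collagens Col1a1, Col3a1 and Col6a1. The summed level of the 8, most of it collagen, was 17691 and 31695 CPM in WT and 33970 and 17776 CPM in Qa-2-. The part of these cell types in the levels of Hand2, Fst and Htra3 was not tested.

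Other decidual genes were taken from lists of regulators and products. Of 34 other decidual regulators, 33 passed the filter. An unadjusted p under 0.05 was reached by 4 with the higher level in WT (8.09% of all genes) and 6 in Qa-2- (7.09%). Of the 33, 12 had a log2 fold change above 0 and 21 below 0, with a median of -0.15. Higher in WT were the interleukin 11 receptor Il11ra1 (0.70), the homeobox factor Hoxa10 (0.56), Klf9 (0.55) and the gap junction protein Gja1 (0.76). Higher in Qa-2- were the estrogen receptor Esr1 (-0.60), the LIF receptor Lifr (-0.80), Snai2 (-0.67), Wnt5a (-0.53), Fosl2 (-0.50) and the steroid receptor coactivator Ncoa2 (-0.38). The progesterone receptor Pgr had a log2 fold change of 0.037, with overlap of the groups. Of the 20 other decidual products, 18 passed the filter. An unadjusted p under 0.05 was reached by 7 with the higher level in WT (8.09% of all genes) and 2 in Qa-2- (7.09%). Of the 18, 15 had a log2 fold change above 0 and 3 below 0, with a median of 0.54, as it was for the 10 members. Among the 7 were Angpt2 (1.51), Ednrb (1.43), Ptgs2 (1.19), Cdkn1a (0.998), Cst3 (0.82) and Timp3 (0.71), and the 2 were Vegfa (-0.81) and Aldh1a2 (-0.65). WT replicate 1 was the highest library for 11 of the 18 products, 5 of the 10 members and 2 of the 33 other regulators. The share over all genes was not counted, so these numbers have no background beside them. Without WT replicate 1 the median of the products was 0.24.

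**Figure D4:**
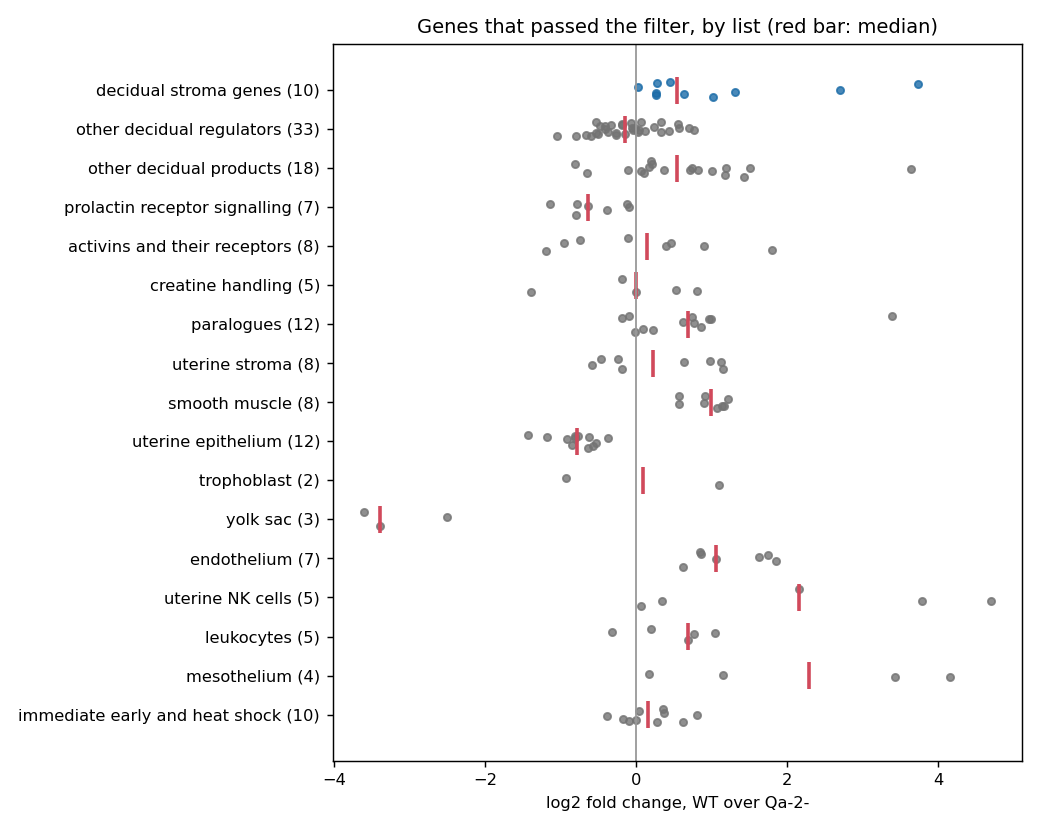
Log2 fold change, as WT over Qa-2-, for the genes of each list that passed the filter, 1 point per gene, with the number of such genes in brackets and the list's median as a red bar. The 10 decidual stroma genes lie above 0, the other decidual regulators lie on both sides, and the smooth muscle and endothelial genes lie above 0.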

How the data were processed

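The authors deposited read-pair counts per gene for each uterus. Per the labels and the methods, poly(A) RNA was made into strand-specific libraries, aligned with STAR 2.7.3a to GRCm38.p6 and counted with featureCounts 2.0.0 (Subread) on the reverse strand, leaving out multi-mapping pairs and pairs that matched several genes. Such rules lower the counts of similar gene copies. Symbols were found for 55154 of 55421 gene IDs. CPM are counts per 1000000 of the library total scaled by TMM (factors 0.957 to 1.05). Genes with at least 1 CPM in 2 libraries, here on unscaled library totals, were tested with edgeR 4.0.16 (R 4.3.3, quasi-likelihood test, WT over Qa-2-, no covariates), with Benjamini-Hochberg adjustment over all 14492 genes. Fold changes named without a log scale are ratios of mean CPM. The SE is the log2 fold change over the square root of F. At the lowest depth 3 counts are 0.0901 CPM of the unscaled total, a floor for counting error only.

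The members and gene lists were chosen with earlier results of these data known. Text names all members, and from each list genes with an unadjusted p under 0.05 or among the 3 most extreme. Replicate libraries differed beyond counting noise. Each came from 1 mouse. Alternatives were DESeq2 1.42.0, other scaling and filters, a replicate block and leaving out each library. The test was tried on simulated counts.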

Additional observations from a re-analysis of the deposited data

How the results depend on the processing

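With DESeq2, 700 genes were called (404 higher in WT, 296 in Qa-2-), among them 1 member, Htra3 (log2 fold change 1.305). With no filter on low counts, 61 genes were called (47 higher in WT, 14 in Qa-2-), none of them a member, and 5 of 10 members had an unadjusted p under 0.05, beside 10.8% of all genes (15.2% and 3 members as reported). Fitted with the replicate number as a block, 2 genes were called, 2 of them higher in WT, and 1 member, Htra3, had an unadjusted p under 0.05 (9.18% of all genes). Whether the numbers pair the libraries is not known. Same-numbered libraries deviated with a correlation of -0.37 and crossed ones with 0.37. With 2 libraries per group these values always mirror each other, so they cannot show whether same-numbered libraries shared a batch. Crossed pairs, chosen after seeing the data, gave 0 called genes, and 4 members had an unadjusted p under 0.05 (25% of all genes).

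Leaving out 1 library at a time, 0 to 45 genes were called, 0 to 45 of them higher in WT, with the 45 without WT replicate 2. Members with an unadjusted p under 0.05 numbered 1, without Qa-2- replicate 2 (5.46% of all genes), to 4, without WT replicate 1 (15.7%) or Qa-2- replicate 1 (12.2%). Hand2, Fst and Htra3 had unadjusted p-values of 0.203, 0.126 and 0.0765 without Qa-2- replicate 2, and Hand2 and Fst of 0.153 and 0.0896 without WT replicate 2. The median log2 fold change ran from 0.23 to 0.88 for the members (without WT replicate 1 and Qa-2- replicate 1), -0.33 to -0.037 for the other regulators (without WT replicates 2 and 1) and 0.24 to 0.65 for the other products. It ran from -2.10 to 3.82 for Prl8a2, -0.20 to 4.71 for Gatm, -0.54 to 0.78 for Prlr, -0.31 to 0.44 for Alpl and -0.083 to 0.70 for Cebpb. Alpl was also below 0 with library totals alone (-0.079). The signs of Hand2, Nr2f2, Fst, Htra3 and Cryab were the same under all alternatives run. These fits assume that a lone library varies like the others. The causes of these changes were not tested. With 2 libraries per group, a library that stands apart sets both the difference and its error.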

Other observations

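Relatives of the members were also counted. Of 13 paralogues, 12 passed the filter, with a median log2 fold change of 0.68. An unadjusted p under 0.05 was reached by 4 with the higher level in WT (8.09% of all genes) and 0 in Qa-2- (7.09%). Htra4, a protease of the Htra3 family, was at 6.73 and 14.5 CPM in the WT libraries and at 1.47 and 0.543 CPM in the Qa-2- libraries, a log2 fold change of 3.39 (SE 0.64, adjusted p = 0.246 in edgeR's quasi-likelihood test). Htra1 (0.62) and Htra2 (0.76) were also higher in both WT libraries, as was the member Htra3. The same separation held for 6 of the 12 paralogues and for 25.4% of all genes. Of the small heat shock genes related to Cryab, Hspb1 (0.98), Hspb8 (0.85) and Hspb2 (0.96), which lies opposite Cryab on the other strand, had both WT libraries above both Qa-2- libraries, while Hspb6 (-0.013) overlapped, as did Cryab. The C/EBP genes Cebpa (-0.19), Cebpg (-0.093) and Cebpd (0.23) overlapped, as did Cebpb. Hand1 had 0 counts in all libraries.

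The genes nearest to Htra3 over the 4 libraries, looked up after its values were seen, were Gucy1b1, Timp1 and Stc1, with root mean square differences of 0.027, 0.038 and 0.046 on the log2 scale. Lbp, the third nearest to Prl8a2, was at 1367 CPM in WT replicate 1 and at 64.5 to 175.6 CPM in the other libraries. The 4 fat markers, all below the filter, summed to 6.18 CPM in WT replicate 1 and to 0.2001 to 0.761 CPM in the others. Median log2 fold changes were 0.68 for leukocytes, 2.29 for mesothelium and 0.16 for immediate early and heat shock genes, over 5, 4 and 10 genes that passed the filter. The 4 yolk sac genes summed to 482.1 CPM in Qa-2- replicate 1 against 5.66, 43.4 and 22.1 CPM in WT replicates 1 and 2 and Qa-2- replicate 2.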
